A study of Mus musculus with 6 samples.

Results

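The genes described here encode the subunits of the mitochondrial respiratory chain and of ATP synthase, from both the nuclear and the mitochondrial genome. They were chosen by gene symbol alone: every row of the count table whose mouse symbol begins as those of the Nduf, Sdh, Uqcr, Cox4 to Cox8 and Atp5 subunits, or names an Nd, Co, Atp or Cytb gene of mitochondrial DNA. This gave 93 of the 12027 rows, of which 80 were nuclear and 13 mitochondrially encoded. The nuclear genes comprised 36 of complex I, 4 of complex II, 8 of complex III, 15 of complex IV and 17 of complex V, and the mitochondrial genes 7, 0, 1, 3 and 2 of the same complexes. No measured value entered the rule itself, though it was set with earlier results of these data known. A further 16 symbols of the rule in the annotation had no row and were not analysed here; 7 of them carried pseudogene names, and the other 9 included Cox4i2, Cox6a2, Cox8b and Cox7b2. The mapped symbols are partly older ones, so that Atp5d is now Atp5f1d and Ndufb1-ps is now Ndufb1.

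Messenger RNA of whole liver was sequenced in 6 groups of mice that had undergone partial hepatectomy, the removal of part of the liver followed by regrowth. All were C57BL/6 males aged 8 weeks. The knockout was specific to hepatocytes per the series' description, and the promoter that drove the deletion was not given. The groups were OGT-KO (OGT-/y) and OGT control (OGTfl/y) at 28 days, OGA-KO (OGA-/-) and OGA control (OGAfl/fl) at 14 days, and OGA-KO (OGA-/-) and OGA control (OGAfl/fl) at 28 days. Ogt encodes the enzyme that attaches O-GlcNAc to proteins of nucleus, cytosol and mitochondria, and Oga the enzyme that removes it. Each group was 1 library of RNA pooled from 3 mice and run in 2 lanes, so that differences between mice were averaged within the pool and no group had replicate libraries. All groups had undergone the operation, and unoperated liver was not analysed here.

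The respiratory chain passes electrons from NADH at complex I and from succinate at complex II through complex III to oxygen at complex IV, and ATP synthase, called complex V, uses the proton gradient that complexes I, III and IV build. Most subunits are encoded in the nucleus and imported, while mitochondrial DNA encodes a small set of hydrophobic core subunits of complexes I, III, IV and V and none of complex II. The assembled enzymes need subunits of both genomes. Hepatocytes are rich in mitochondria, and regrowth after hepatectomy is known to draw on their ATP supply.

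Library totals lay between 20433100 counts (OGT-KO) and 29327722 counts (OGA-KO, day 14). Levels below are CPM, counts scaled to a fixed library size with TMM factors, and a log2 ratio compares 2 libraries with the 95% counting interval in brackets. That interval covers counting error only. Tests come from 1 edgeR quasi-likelihood fit of all 6 libraries over 12026 genes with terms for line, day, OGA-KO and OGT-KO; the spread rests on the agreement of the OGA-KO effect between times, and the lone OGT libraries are assumed to vary like the OGA libraries. A gene rose or fell where its Benjamini-Hochberg adjusted p over all genes was under 0.05. Oga (listed as Mgea5) had 10.4 CPM in OGA-KO against 62.2 CPM in control at 14 days and 12.8 CPM against 67.2 CPM at 28 days. Ogt had 43.2 CPM in OGT-KO against 58.0 CPM in OGT control (1205 and 1339 counts, log2 -0.43, edgeR adjusted p = 0.0144), and by library totals the log2 difference was -0.055 and not called, as it was not by DESeq2 or without the line term. Its transcript was thus a weak check of that label; a count over the whole gene also holds reads of cells that keep the gene and of exons that were not deleted.

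The OGT-KO pair addresses how liver lacking OGT in hepatocytes differed from its control 28 days after hepatectomy. Nuclear subunit genes were lower there throughout the chain: 73 of 80 fell, none rose (also 0 at an unadjusted p under 0.05, and 0 by DESeq2), and 7 did not pass the test. At an unadjusted p under 0.05, 1 nuclear member was higher by DESeq2 and 1 by edgeR with library totals. Over all 12026 genes 26.6% fell and 26.1% rose. The median log2 ratio of the 79 nuclear members with at least 1 CPM was -0.85 (quartiles -1.13 and -0.63), a difference of -44.5%, against -0.001 for all rows. Of these 79, 76 were below 0, where 50% of all such rows were. At least 2-fold differences, by a size rule with no test, numbered 26 lower and 1 higher, where 11.7% and 16.4% of all such rows passed. The mitochondrially encoded genes stood apart from the nuclear ones: their median was -0.15 (lowest -0.31, highest 0.92), 1 rose, 1 fell and 11 did not pass the test. Scaled by library totals in place of TMM, all rows shifted by 0.37, the nuclear median became -0.48 with 55 falling, and the mitochondrial median turned to 0.22. Without the line term in the fit, 49 nuclear members fell. In whole liver, fewer hepatocytes and less RNA per hepatocyte cannot be told apart.

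**Figure D1:**
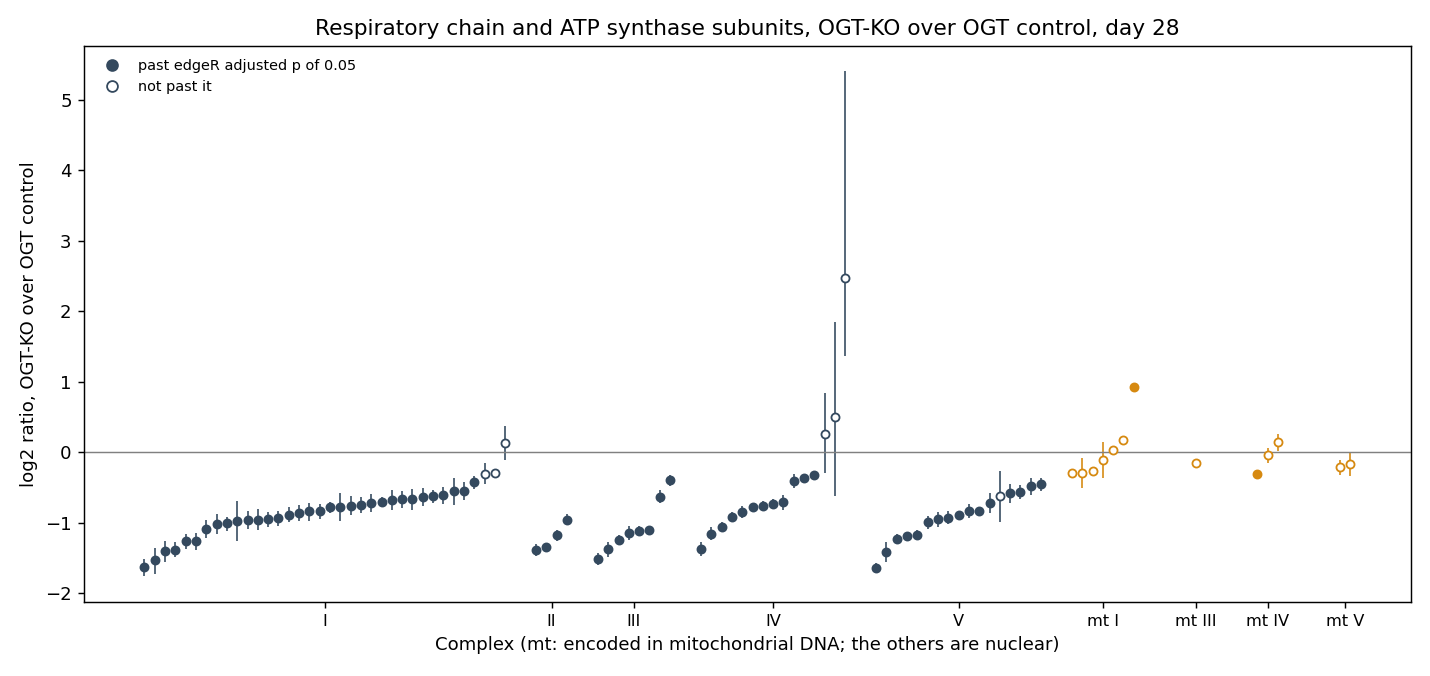
Log2 ratio of CPM, OGT-KO over OGT control at day 28 (vertical axis), for each subunit gene, grouped by complex on the horizontal axis with nuclear genes left and mitochondrially encoded (mt) genes right. Points are genes sorted within a complex, lines are 95% counting intervals, and filled points passed the edgeR threshold. All but 3 of the 79 nuclear genes with at least 1 CPM lie below 0, and the mitochondrial genes lie around 0 except mt-Nd1 at 0.92.

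Level and direction were related across genes. Abundant rows in general were lower in OGT-KO. Genes are not independent replicates here and share both libraries. Across genes, Pearson's r of the log2 ratio with the log2 of mean CPM was -0.571 over the 80 nuclear members and -0.402 over 11795 rows. Spearman's rho was -0.354 over the members and -0.403 over the rows. The rare isoforms Cox6b2, Cox7a1 and Ndufa4l2 had low levels and ratios above 0, and r without them was not computed. Between the members' own quartiles of mean level, 59.8 and 149.0 CPM, 44.6% of 1465 nuclear rows outside the chain fell, with a median of -0.25. In the same range all 40 nuclear members fell, with a median of -0.85. OGT-KO held the lowest CPM of the 6 libraries for 74 of 80 nuclear members, as it did for 36.7% of all rows that reached 1 CPM in any library. The lowest member count in any library was 3 (Cox6b2 in OGT control).

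Complex I, the NADH dehydrogenase, fell in 33 of its 36 nuclear genes, with a median of -0.81. Ndufb9 (ENSMUSG00000022354), an accessory subunit at the distal end of the membrane arm, had 27.2 CPM in OGT-KO and 84.6 CPM in OGT control, against 101.2 to 106.4 CPM in the OGA libraries (log2 -1.64, -1.76 to -1.52, edgeR adjusted p = 0.000317). Ndufa3 had 12.4 CPM in OGT-KO and 36.0 CPM in control (log2 -1.53), and Ndufb3 19.1 CPM and 50.6 CPM (log2 -1.40), both below every other library. The N module, which binds and oxidises NADH, fell in all 10 of its nuclear genes with a narrow range from -1.01 to -0.55. The flavin-binding Ndufv1 had 79.4 CPM in OGT-KO and 136.3 CPM in control (log2 -0.78), and the largest iron-sulfur subunit, Ndufs1, 68.8 CPM and 106.4 CPM (log2 -0.63).

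Among the genes of the membrane arm, all 10 nuclear genes of the proximal part and 9 of 11 of the distal part fell, with medians of -0.84 and -0.93. The 7 nuclear genes of the catalytic core and the 29 accessory genes had close medians, -0.75 and -0.84, with 6 and 27 falling. Among the complex I genes that did not pass were Ndufb4 at 11.9 CPM in OGT-KO and 10.9 CPM in control (log2 0.12, edgeR adjusted p = 0.635) and Ndufb6 (log2 -0.31, edgeR adjusted p = 0.0614), both accessory subunits of the distal part; the sign of Ndufb4 turned without the line term and that of Ndufb6 under library totals.

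Complex II, succinate dehydrogenase, is shared between the chain and the TCA cycle and is wholly nuclear. All 4 of its genes fell, and their median of -1.26 was the lowest of the 5 complexes. Sdha (ENSMUSG00000021577), the flavoprotein that oxidises succinate, had 204.4 CPM in OGT-KO and 519.0 CPM in OGT control, against 503.7 to 569.7 CPM in the OGA libraries (log2 -1.34, -1.39 to -1.30, edgeR adjusted p = 0.000477). The iron-sulfur subunit Sdhb had 60.3 CPM in OGT-KO and 157.3 CPM in control (log2 -1.38). The membrane anchors were lower too, Sdhc at 68.9 CPM in OGT-KO and 156.5 CPM in control (log2 -1.18) and Sdhd at 79.2 CPM and 154.1 CPM (log2 -0.96). For each of the 4, the OGT-KO library was the lowest of the 6.

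Complex III, the cytochrome bc1 complex, fell in all 8 nuclear genes with a median of -1.13. Uqcrq, a small accessory subunit, had 63.0 CPM in OGT-KO and 180.1 CPM in OGT control, against 246.7 to 297.0 CPM in the OGA libraries (log2 -1.51, -1.60 to -1.44, edgeR adjusted p = 0.000346). Uqcrfs1, the Rieske iron-sulfur protein and a catalytic subunit, had 85.0 CPM in OGT-KO and 202.1 CPM in control (log2 -1.25). The core proteins Uqcrc1 and Uqcrc2 were lower by similar amounts (log2 -1.10 and -1.12), and Uqcr10 reached -1.38. Uqcrh, the hinge protein, had the smallest difference at 84.8 CPM in OGT-KO and 112.1 CPM in control (log2 -0.40, edgeR adjusted p = 0.0198), and Uqcrb stood at -0.63.

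Complex IV, cytochrome c oxidase, fell in 12 of 15 nuclear genes, with a median of -0.75 and a range from -1.37 to 2.47 over the 14 genes with at least 1 CPM, where a rare isoform set the upper end. Cox7c had 48.0 CPM in OGT-KO and 124.4 CPM in OGT control, against 128.4 to 133.2 CPM in the OGA libraries (log2 -1.37, -1.47 to -1.28, edgeR adjusted p = 0.000436). Cox7b (log2 -1.16) and Cox8a (log2 -1.06) followed. Cox4i1, the regulatory subunit of most tissues, had a small difference at 204.5 CPM in OGT-KO and 256.9 CPM in control (log2 -0.33, edgeR adjusted p = 0.0387), and its sign turned under library totals (log2 0.04). Cox6b1 (log2 -0.37, but 0.003 under library totals) and Cox7a2l (log2 -0.41), a factor that joins complexes III and IV, also fell by little. Ndufa4, once counted in complex I and now placed in complex IV, had 89.9 CPM in OGT-KO and 149.5 CPM in control (log2 -0.73).

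The alternative isoforms of complex IV had low counts in these livers. For Cox6b2, the testis form, OGT-KO held 30 counts and OGT control 3, against 46 to 142 in the OGA libraries. It did not pass the test (log2 2.47, 1.36 to 5.40, edgeR adjusted p = 0.115). Its log2 change ran from -0.37 to 3.37 over 11 alternative fits, and its sign turned without the line term. For Cox7a1, the heart and muscle form, the counts in OGT-KO and OGT control were 18 and 10 (log2 0.50, -0.62 to 1.85, edgeR adjusted p = 0.538). For the hypoxia-linked Ndufa4l2 they were 67 and 46 (log2 0.26, -0.29 to 0.84, edgeR adjusted p = 0.545). Per kilobase of exon, Ndufa4l2 stood at 3.37% of Ndufa4 in OGT-KO and 1.68% in OGT control, and at 1.28% to 1.58% in the OGA libraries. Cox7a1 stood at 2.24% of Cox7a2 in OGT-KO and 0.919% in OGT control, and at 0.487% to 1.89% in the OGA libraries. Both shares were higher in OGT-KO, where the common partner had fallen and the interval of the rare form included 0. Cox6b2 stood at 0.491% of Cox6b1 in OGT-KO and 0.0460% in OGT control, both below the 0.620% to 2.005% of the OGA libraries.

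Complex V, ATP synthase, fell in 16 of 17 nuclear genes with a median of -0.89. Atp5d (ENSMUSG00000003072), the delta subunit of the central stalk, had 90.5 CPM in OGT-KO and 282.2 CPM in OGT control, against 296.8 to 318.1 CPM in the OGA libraries (log2 -1.64, -1.71 to -1.57, edgeR adjusted p = 0.000298). Its partner in the stalk, the epsilon subunit Atp5e, had 21.9 CPM in OGT-KO and 58.6 CPM in control (log2 -1.42). The catalytic beta subunit Atp5b had 709.0 CPM in OGT-KO and 1258 CPM in control (log2 -0.83), and the alpha subunit Atp5a1 554.3 CPM and 1029 CPM (log2 -0.89). All 9 genes of the F1 head and stalks fell (median -0.998), as did all 7 nuclear genes of the membrane part (median -0.72). The smallest of these differences were those of Atp5j2 (log2 -0.46), Atp5o (log2 -0.48) and Atp5k (log2 -0.57). Atp5s, now Dmac2l and counted with the subunits because of its older symbol, was at 4.23 CPM in OGT-KO and 6.54 CPM in control and did not pass (edgeR adjusted p = 0.0715).

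The ring of subunit c in ATP synthase is built from 1 protein that 3 nuclear genes encode, and these genes differed in size of change. Atp5g3 had 157.1 CPM in OGT-KO and 357.6 CPM in OGT control (log2 -1.19), Atp5g1 42.9 CPM and 83.3 CPM (log2 -0.95), and Atp5g2 25.6 CPM and 42.3 CPM (log2 -0.72). Per kilobase of exon Atp5g3 had the highest level of the 3 in every library. Atp5g1 was at 12.1% of Atp5g3 in OGT-KO, 10.3% in OGT control and 18.8% to 23.1% in the OGA libraries, lower in both OGT libraries than in the 4 OGA libraries. Atp5if1 (listed as Atpif1), the inhibitor that stops ATP synthase from running backwards and no match to the rule, went the other way: it had 23.8 CPM in OGT-KO and 15.3 CPM in OGT control, against 11.4 to 12.2 CPM in the OGA libraries (log2 0.63, 0.45 to 0.82, edgeR adjusted p = 0.0138). Its call was lost by DESeq2's Wald test and without the line term.

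Of the mitochondrially encoded genes, mt-Nd1 (ENSMUSG00000064341), a core subunit at the quinone site of complex I, was the exception. OGT-KO held 301540 of its counts and OGT control 131767, or 10800 CPM and 5708 CPM, against 7036 to 7770 CPM in the OGA libraries (log2 0.92, 0.91 to 0.93, edgeR adjusted p = 0.00178). OGT-KO was the highest and OGT control the lowest of the 6 libraries for this gene; without the line term the log2 change was 0.68 and not called. Within the counts of the 13 genes mt-Nd1 made up 20.1% in OGT-KO (19.99% to 20.12%), 10.3% in OGT control and 9.53% to 10.5% in the OGA libraries. The annotation places mt-Nd1 first among the protein genes of the mitochondrial genome.

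The other genes of high count had ratios between -0.31 and 0.17 in OGT-KO. The catalytic oxidase subunit mt-Co1 had 18620 CPM in OGT-KO and 23070 CPM in OGT control (log2 -0.31, edgeR adjusted p = 0.0332), a call that DESeq2, the fits without the line or day term and the fits without either OGA control did not make, and whose sign turned under library totals (log2 0.06). For complex I, mt-Nd2 (log2 -0.30, adjusted p = 0.0615), mt-Nd4 (log2 -0.27), mt-Nd5 (log2 0.02) and mt-Nd6 (log2 0.17) did not pass. Under library totals mt-Nd5 (log2 0.395) and mt-Nd6 (log2 0.539) rose, and without the line term both were below 0 and not called. The cytochrome b gene mt-Cytb had 8036 CPM in OGT-KO and 8938 CPM in OGT control, against 13290 to 14940 CPM in the OGA libraries (log2 -0.15, adjusted p = 0.202 by edgeR). The signs of mt-Nd2, mt-Nd4 and mt-Cytb turned under library totals. With mt-Nd1 set aside, these 6 genes had a median of -0.21.

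**Figure D2:**
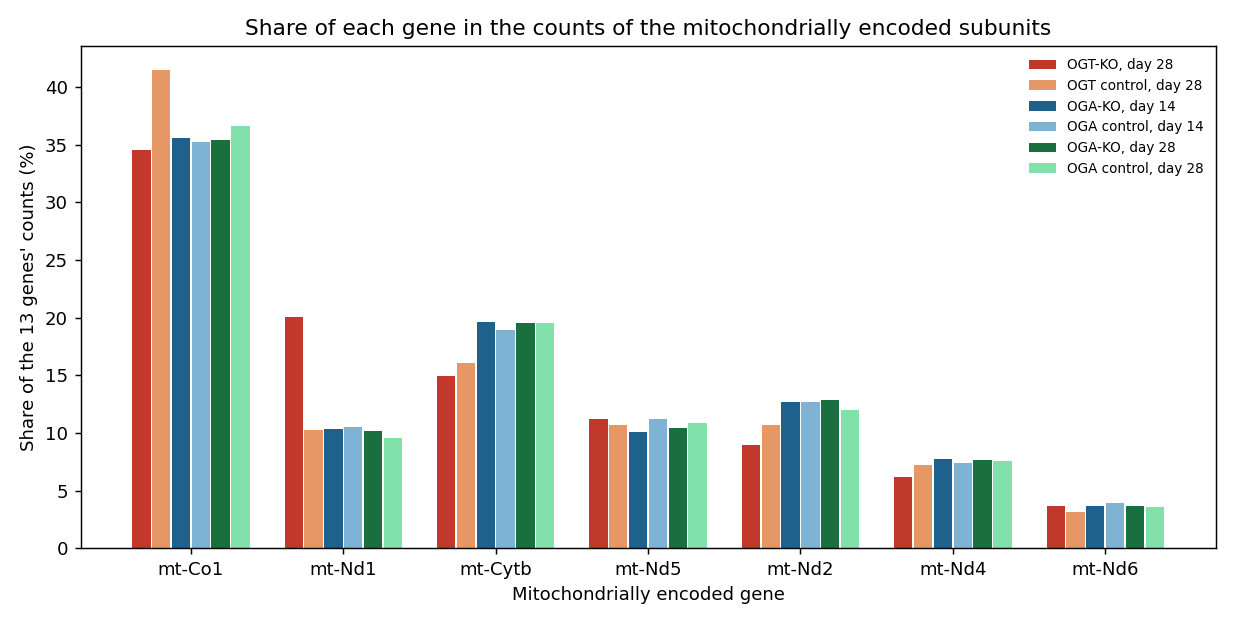
Share of each gene in the summed counts of the 13 mitochondrially encoded subunits (vertical axis, %), for the 7 genes of at least 10000 counts, 1 bar per library. mt-Nd1 makes up 20.1% in OGT-KO against 10.3% in OGT control and 9.53% to 10.5% in the OGA libraries, and mt-Co1 34.6% in OGT-KO against 41.5% in OGT control.

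The levels of the 13 genes fell into separate ranges in every library. The 7 genes above had 40432 to 733940 counts, while mt-Co2, mt-Co3, mt-Atp6, mt-Atp8, mt-Nd3 and mt-Nd4l had 241 to 1730. Per kilobase, mt-Co1 had 12050 CPM in OGT-KO and 14930 CPM in OGT control, whereas mt-Co2, another subunit of the same enzyme, had 90.6 CPM and 93.6 CPM. Most genes of the low range had nuclear copies in the annotation: of the 31-base words of mt-Co2, mt-Co3, mt-Atp6, mt-Nd3 and mt-Nd4l, 98.1% to 100% also occurred in annotated nuclear transcripts, mostly pseudogenes on chromosome 1, against 0.0% for mt-Nd1 and 63.9% at most for the 7 genes of high count. mt-Atp8, in the low range as well, had 7.5% of its words in annotated nuclear transcripts. Nuclear sequence outside annotated transcripts was not searched, so copies there would be missed for mt-Atp8 and for the other genes. How reads with several matches were counted is not given in the sources used here, and the part of the copies in these levels was not tested.

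**Figure D3:**
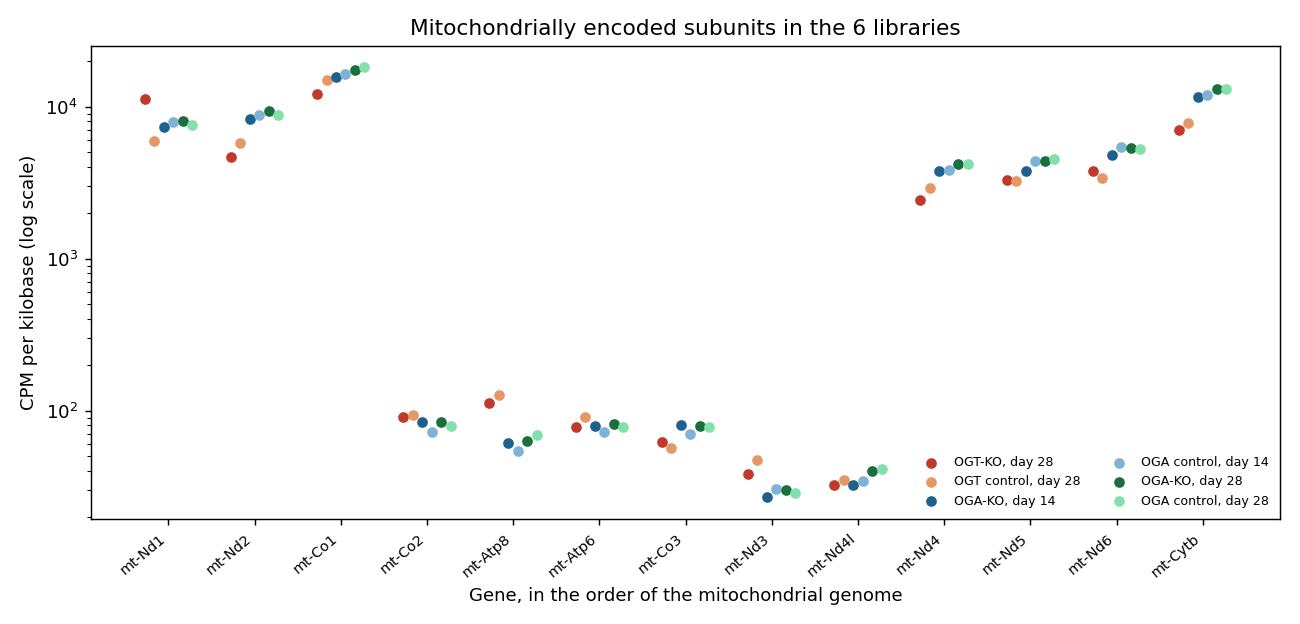
CPM per kilobase of the 13 mitochondrially encoded subunits (vertical axis, log scale) in the order of the mitochondrial genome (horizontal axis), 1 point per library. In every library the 6 neighbouring genes from mt-Co2 to mt-Nd4l lie at or below 126.6 CPM per kilobase and the other 7 at or above 2421.

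The first 120 bases of mt-Co2 and of the unprocessed pseudogene Gm28661 show what such a copy is; the annotated sequences were identical over 681 aligned bases, with 0 mismatches (GRCm38, chrM:7013-7132, forward strand, and chr1:24615446-24615565, reverse strand, both as in the GENCODE transcripts).
mt-Co2: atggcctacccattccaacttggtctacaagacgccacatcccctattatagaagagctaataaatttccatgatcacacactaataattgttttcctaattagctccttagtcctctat
Gm28661: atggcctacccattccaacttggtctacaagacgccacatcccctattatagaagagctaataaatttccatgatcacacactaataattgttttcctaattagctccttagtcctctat
Gm28661 had no row in the count table. For the low genes the ratios in OGT-KO lay on both sides of 0, with mt-Co3 at 0.14, mt-Co2 at -0.05, mt-Nd4l at -0.12, mt-Atp8 at -0.17, mt-Atp6 at -0.22 and mt-Nd3 at -0.30, and edgeR called none of these 6 (unadjusted p under 0.05 for none). Under library totals mt-Co3 (log2 0.509) and mt-Co2 (log2 0.325) rose. The pairs mt-Atp8 and mt-Atp6, mt-Nd4l and mt-Nd4, and mt-Nd5 and mt-Nd6 overlap, the last on opposite strands. The shared stretches are short, at chrM:7927-7969, chrM:10167-10173 and chrM:13552-13565. The counting setting is unknown, so that the assignment of reads that reach these stretches is uncertain.

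The balance between the genomes differed in OGT-KO. The 80 nuclear genes took 0.782% of the OGT-KO library (95% exact binomial interval 0.779% to 0.786%) and 1.14% of the OGT control library, against 1.06% to 1.11% in the OGA libraries. The 13 mitochondrial genes took 7.36% of the OGT-KO library and 5.87% of OGT control, against 6.25% to 6.91% in the OGA libraries. Mitochondrial counts were 9.41 times the nuclear counts in OGT-KO and 5.15 times in OGT control, and 5.61 to 6.51 times in the OGA libraries. This quotient does not depend on the scaling of the libraries. OGT-KO was the lowest library in the nuclear share and the highest in the mitochondrial share, while OGT control was the lowest in the mitochondrial share. The highest rank rested on mt-Nd1: without it, a sum chosen after seeing the data, the mitochondrial share was 5.88% in OGT-KO and 5.27% in OGT control, against 5.60% to 6.25% in the OGA libraries. Mitochondrial counts without mt-Nd1 were 7.52 times the nuclear counts in OGT-KO and 4.62 times in OGT control, against 5.03 to 5.89 times in the OGA libraries.

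**Figure D4:**
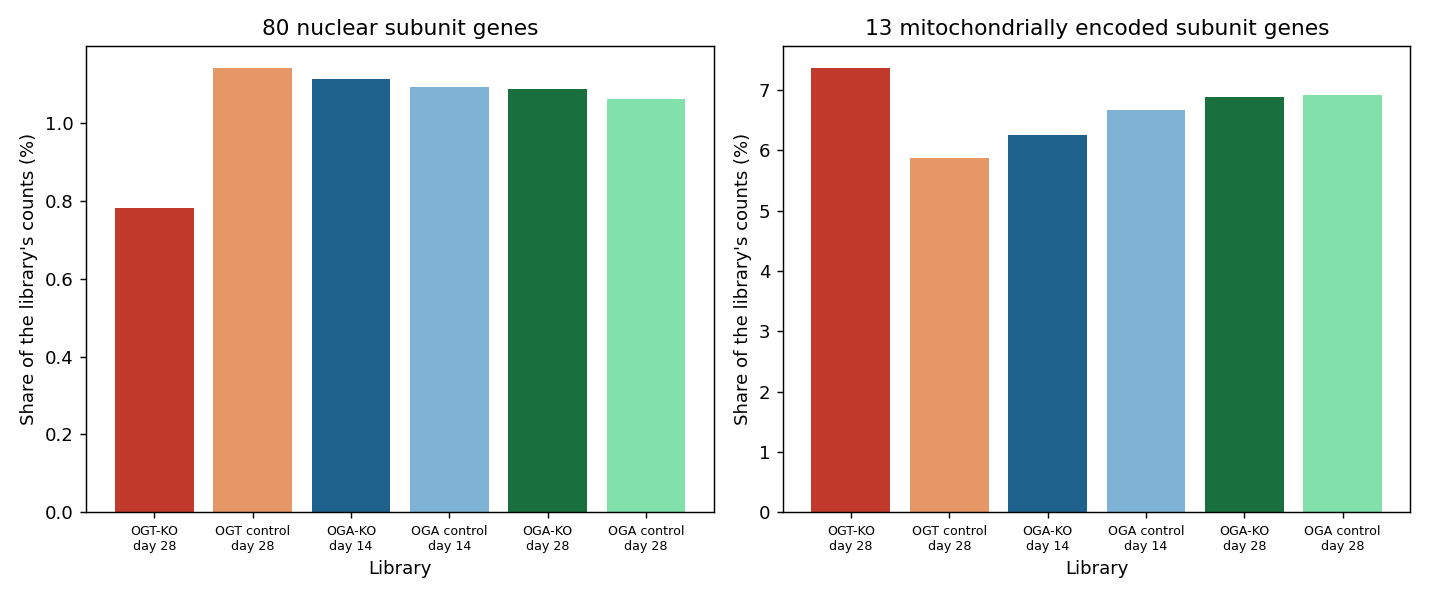
Share of each library's counts (vertical axes, %) in the 80 nuclear (left) and 13 mitochondrially encoded (right) subunit genes, 1 bar per library. The nuclear share is 0.782% in OGT-KO against 1.14% in OGT control, and the mitochondrial share 7.36% in OGT-KO against 5.87% in OGT control.

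The OGA-KO pairs ask whether loss of the opposite enzyme moved the same genes, with 14 and 28 days as the 2 times. No member was called: edgeR gave 0 of 93 risen and 0 fallen, where 3 genes (0.0249%) rose and 1 gene (0.00832%) fell over all 12026. At an unadjusted p under 0.05, 1 nuclear member was higher and 1 lower, and DESeq2 also called 0. The nuclear median was 0.02 at 14 days and 0.07 at 28 days, and the mitochondrial median -0.07 and 0.03. Of nuclear members with at least 1 CPM, 60.0% were above 0 at 14 days and 81.0% at 28 days. Of all such rows 50.4% and 50.8% were. Among the 13 mitochondrial members 4 were above 0 at 14 days and 8 at 28 days. Genes share both libraries of a pair, and these shares were not tested. The highest by the smaller of both ratios was Ndufb2, an accessory subunit of complex I, with 497 counts against 353 in control at 14 days, or 18.4 CPM and 14.4 CPM, and 445 against 382 at 28 days (log2 0.35 and 0.30, unadjusted p = 0.0196 in edgeR, adjusted p = 0.326). Next came Ndufa4 (0.16 and 0.17) and Uqcrq (0.14 and 0.16). By the size rule, 0 members were higher and 1 lower at 14 days (0.534% and 0.305% of all such rows), and 1 was higher and 0 lower at 28 days (1.7% and 0.869%); these were the rare Cox7a1 and Cox6b2.

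The lowest values in OGA-KO belonged to a rare isoform. Cox7a1 stood at 9 counts in OGA-KO against 31 in its control 14 days after the operation, and at 8 against 13 after 28 days (log2 -1.71 and -0.52, unadjusted p = 0.0400 and adjusted p = 0.362 in edgeR). Ndufv1 (-0.09 and -0.12) and Ndufs7 (-0.08 and -0.11) followed with differences near 0. Ndufs5 differed at 1 time: it had 18.9 CPM in OGA-KO and 29.7 CPM in control at 28 days (log2 -0.65, -0.82 to -0.48), and 20.9 CPM and 20.7 CPM at 14 days (log2 0.01). The OGA control at 28 days was the high library among the OGA libraries for this gene. Pancreas marker genes summed to 197.7 CPM in the OGA-KO library of day 28 and to 27.3 CPM in its control, and their part in the subunit values was not tested.

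The contrast of the knockout effects was tested in the same fit. Against the OGA-KO effect, the OGT-KO effect was lower for 71 of 80 nuclear members and higher for none, where 22.7% of all genes were lower and 21.4% higher. Atp5d had the contrast -1.70 (edgeR adjusted p = 0.000735) and Ndufb9 -1.66 (adjusted p = 0.000831, edgeR). Of the mitochondrial genes mt-Nd1 was higher (0.93, edgeR adjusted p = 0.00468) and the other 12 did not pass. Complex II passed in 4 of 4 genes, complex III in 8 of 8, complex I in 32 of 36, complex IV in 12 of 15 and complex V in 15 of 17. The contrast also rests on the assumed spread of the OGT libraries.

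The controls show how far livers without a knockout differed. Between the times, OGA control at 28 days over 14 days had a nuclear median of -0.04 and a mitochondrial median of 0.13, with 0 members 2-fold higher and 2, Cox6b2 and Cox7a1, 2-fold lower (0.519% and 0.408% of all such rows). Between the lines, OGT control over OGA control at 28 days, the nuclear median was -0.25 and the mitochondrial median -0.35, and under library totals these were -0.02 and -0.13. All 7 mitochondrial genes of high count were lower in OGT control, from -0.74 for mt-Cytb to -0.28 for mt-Co1, whereas mt-Atp8 (0.87) and mt-Nd3 (0.72) were higher. The lowest nuclear members in OGT control were Cox6b2 at 3 counts against 46 counts in OGA control (log2 -3.14), Ndufv3 at 48.4 CPM against 95.6 CPM (log2 -0.98) and Atp5g1 at 83.3 CPM against 155.6 CPM (log2 -0.90), and the highest was Atp5s (log2 0.79). By the size rule 0 members were higher and 1 lower, where 4.72% and 5.72% of such rows were. These differences between lines had 1 library each and no test.

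**Figure D5:**
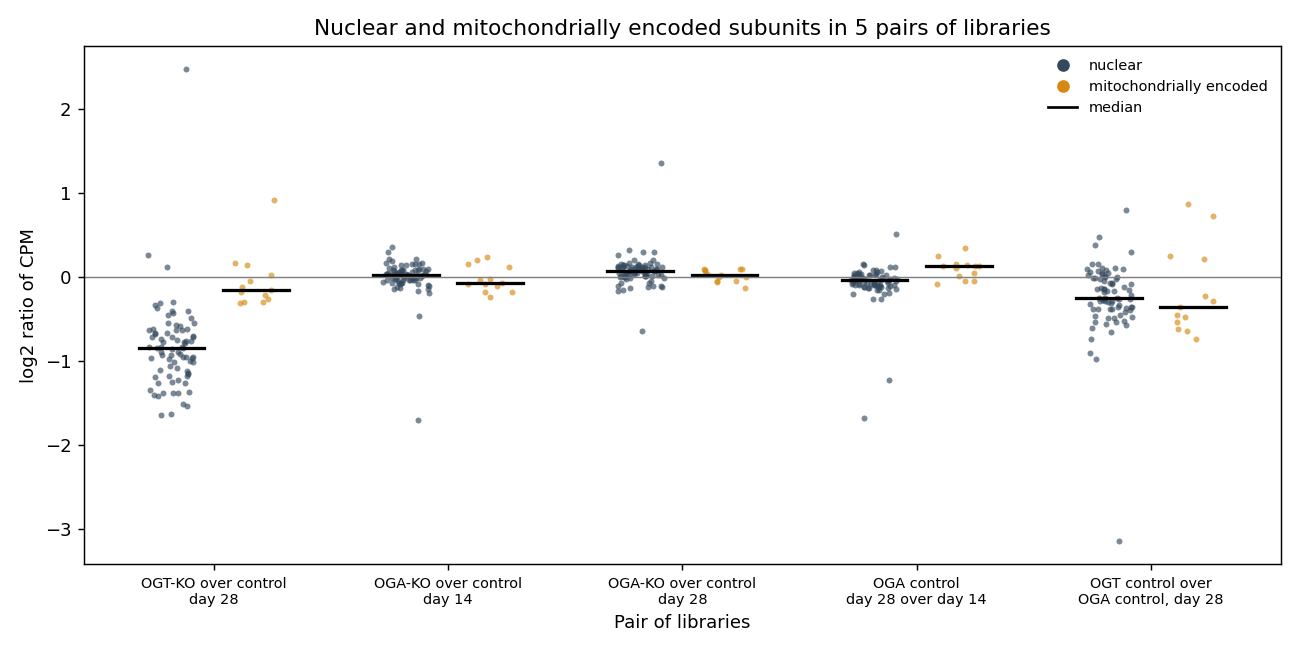
Log2 ratio of CPM (vertical axis) of the nuclear and the mitochondrially encoded subunit genes with at least 1 CPM in 5 pairs of libraries (horizontal axis), 1 point per gene, with the median as a black line. The nuclear median is -0.85 in OGT-KO over control, 0.02 and 0.07 in OGA-KO over control, -0.04 between times and -0.25 between the control lines.

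Genes that work with the chain were lower in OGT-KO as well, beside the 26.6% of all genes that fell. Of 19 complex I assembly factors 15 fell and none rose (median -0.94), led by Timmdc1 at 7.34 CPM in OGT-KO and 25.1 CPM in control (log2 -1.76) and Dmac2 (log2 -1.63). Of 24 complex IV assembly factors 14 fell (median -0.63), among them Coa3 (log2 -1.71) and the haem-insertion factor Surf1 (log2 -1.15). For complex III 4 of 6 fell, with Bcs1l, which inserts the Rieske protein, at -1.08; for complex V 1 of 4 fell, Fmc1 at -1.91, where the 4 include Atp5s, also a match to the subunit rule. None of the 4 complex II factors passed (median -0.30; by edgeR, Sdhaf2 had an unadjusted p of 0.0341 and the others above 0.05). Of 9 other chain components 7 fell. Ndufab1, itself a chain component, is counted both here and in the list of 19 complex I assembly factors. Those that fell included Etfdh, which passes electrons from fatty acid oxidation to ubiquinone, at 51.4 CPM in OGT-KO and 235.5 CPM in control (log2 -2.19), and cytochrome c1 (Cyc1) at -1.30. Cycs, somatic cytochrome c, did not pass (log2 -0.35, edgeR adjusted p = 0.0987).

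Genes that keep and read mitochondrial DNA fell in 11 of 18 cases (median -0.58), where 26.6% of all genes fell and 26.1% rose. The packaging and initiation factor Tfam had 26.7 CPM in OGT-KO and 47.3 CPM in OGT control, against 35.9 to 37.2 CPM in the OGA libraries (log2 -0.82, edgeR adjusted p = 0.00196). The mitochondrial RNA polymerase Polrmt had 23.1 CPM and 37.0 CPM (log2 -0.68), and the elongation factor Tefm stood at -1.58. Of 20 genes of mitochondrial RNA processing and stability 9 fell and 1 rose (median -0.36), among them Elac2, which trims tRNAs (log2 -1.25). Of 77 mitochondrial ribosomal proteins 36 fell and 3 rose (median -0.35). Transcription factors and coactivators of respiratory genes were mixed: of 14, 6 fell and 1 rose, with Ppargc1b at -1.67 and Esrra at -0.64, while Ppargc1a (-0.40, adjusted p = 0.11) and Nrf1 (0.47, adjusted p = 0.0501) did not pass in edgeR.

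The lists for other mitochondrial functions held more fallen than risen genes, where 26.6% of all genes fell and 26.1% rose. Of 13 TCA cycle enzymes 9 fell (median -0.47), with citrate synthase, Cs, at 73.6 CPM in OGT-KO and 200.3 CPM in control (log2 -1.44) and Suclg1 at -1.54. Of 25 genes of membrane structure and protein import 15 fell (median -0.43), and of 14 chaperones and proteases 9 fell and 1 rose (median -0.70). Among 13 hypoxia-linked genes, by contrast, 6 rose and 3 fell, with Slc2a1, a glucose transporter, at 2.06 and Bnip3, a mitophagy receptor, at -1.17.

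Markers of several other cell types differed in OGT-KO, where 26.1% of all genes rose and 26.6% fell. Stellate and matrix markers rose in 11 of 11 rows (summed 2498 CPM in OGT-KO and 312.8 CPM in OGT control), cholangiocyte markers in 7 of 8 (573.2 CPM and 108.9 CPM), macrophage markers in 11 of 12 (1555 CPM and 409.5 CPM) and proliferation markers in 7 of 7 (171.7 CPM and 21.01 CPM). Endothelial markers rose in 3 and fell in 3 of 10 rows, near the shares over all genes, and erythroid markers fell in 3 of 5. Hepatocyte markers fell in 7 of 12 with none rising (median -0.46), and summed to 82600 CPM in OGT-KO and 106900 CPM in control; no hepatocyte, stellate, cholangiocyte or macrophage marker was at 0 in any library. Rare rows existed for adipose (2 of 3 rose) and skeletal muscle markers (1 of 1 rose). The nuclear subunit median of -0.85 lay below the hepatocyte marker median of -0.46, a difference that was not tested, and the part of cell makeup in the subunit values was not tested.

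Promoter letters were compared because so many nuclear members moved together. Of the 80 nuclear members 67 matched a promoter in the RefSeq table (GRCm38.p6), read from 250 bases before to 50 after the start. The core motif of NRF1, a factor known to act at respiratory genes, CGCATGCG (its own reverse complement), was present in 9 of 67 members (13.4%), against 4.3% of 9635 genes with a row and 2.1% of all 27025 genes. The core motif of GABPA, the ETS factor also called NRF2, CCGGAAGTG (CACTTCCGG on the other strand), was present in 2 (3.0%), against 5.0% and 2.2%. No member held both. A few examples follow, each shown as the 250 bases before the start with the motif in capitals: Ndufa8 (chr2:36049339-36049588, reverse strand), Cox6a1 (chr5:115348959-115349208, reverse strand) and Uqcrh (chr4:116075071-116075320, reverse strand).
Ndufa8: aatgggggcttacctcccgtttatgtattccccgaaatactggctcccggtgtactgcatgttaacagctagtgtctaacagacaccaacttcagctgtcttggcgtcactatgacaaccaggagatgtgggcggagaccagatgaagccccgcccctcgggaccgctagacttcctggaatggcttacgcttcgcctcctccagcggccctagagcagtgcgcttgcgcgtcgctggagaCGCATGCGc
Cox6a1: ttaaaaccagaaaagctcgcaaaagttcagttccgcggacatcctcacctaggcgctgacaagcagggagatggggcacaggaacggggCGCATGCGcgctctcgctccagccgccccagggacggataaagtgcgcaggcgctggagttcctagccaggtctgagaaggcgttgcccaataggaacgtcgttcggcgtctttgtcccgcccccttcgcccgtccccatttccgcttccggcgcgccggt
Uqcrh: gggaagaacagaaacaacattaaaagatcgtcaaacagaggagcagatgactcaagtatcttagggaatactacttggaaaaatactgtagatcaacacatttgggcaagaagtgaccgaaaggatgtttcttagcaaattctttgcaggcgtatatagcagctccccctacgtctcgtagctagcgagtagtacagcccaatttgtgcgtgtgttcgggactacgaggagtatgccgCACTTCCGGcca
Ndufa8 and Cox6a1 carry the NRF1 letters and stood at -0.95 and -0.79 in OGT-KO; Uqcrh carries the GABPA letters and stood at -0.40. All 9 members with the NRF1 motif fell (median -0.84), as did 53 of 58 with a promoter and no such motif (median -0.89). No match says only that the letters are not in this window.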

How the data were processed

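Liver mRNA of 6 pooled libraries was analysed. The authors deposited raw counts per Ensembl gene and CPM; STAR, Subread, edgeR and mm39 are named in the submitters' processing notes, without versions. The deposited CPM were used to check library totals, and all CPM here were computed from the deposited counts with TMM (edgeR 4.0.16, R 4.3.3). In the OGT libraries the deposited CPM imply a further 0.769% (OGT-KO) and 0.104% (control) of counts outside the rows. The filter behind the 12027 rows is not given in the sources used here. Symbols, lengths and transcripts came from GENCODE M21 (GRCm38), another build than the files', and gave 12019 rows a symbol.

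Log2 ratios used a prior count of 2, intervals were exact Clopper-Pearson, covering counting error only. The edgeR quasi-likelihood fit had 5 coefficients and 1 residual degree of freedom. DESeq2 1.42.0 was an alternative, as were other scalings, filters, terms, prior counts and fits without 1 library. On simulated data the OGT-KO test recovered 28.4%, 72.9% and 95.2% of genes changed 1.5-, 2- and 4-fold (12026 genes), and 5.11% of its calls were unchanged genes. The simulation changed only 67, 70 and 63 genes at these folds, in random directions, and gave OGT and OGA libraries the same spread. It thus built in the assumption that the OGT-KO test rests on, and its rates need not hold for the OGT-KO pair, where far more genes were called. Named genes are all mitochondrial and complex II members, isoforms, the 3 highest and 3 lowest per complex at 10 CPM or more, the extremes of the other pairs and up to 4 genes per list, with further members by role; 1 gene that this rule names is not reported here. The members and lists were chosen with earlier results of these data known.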

Additional observations from a re-analysis of the deposited data

Results flagged for a closer look

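For 8 members the OGA-KO over control log2 ratio lay on opposite sides of 0 at 28 and 14 days with counting intervals that excluded 0 at each time; with 1 library per group the difference between times was not tested. The ratio at 28 days minus that at 14 days was 0.27 for Atp5j, 0.29 for Atp5o, 0.135 for Uqcrc1 and 0.14 for Cox5b, all nuclear. It was 0.20 for mt-Nd1, 0.18 for mt-Nd2 and 0.21 for mt-Nd6. Cox6b2, the testis isoform with at most 142 counts in a library, had the largest difference of the 8, 1.82. In every one of these genes the ratio was above 0 at 28 days and below 0 at 14 days. The medians were also higher at 28 than at 14 days, 0.068 against 0.021 for nuclear members and 0.025 against -0.074 for mitochondrial members. The share of all rows that met this rule is not given here, so the 8 cannot be set against it. Counting intervals are narrow at high counts and exclude 0 for small differences.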

How the results depend on the processing

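With 1 library per group, calls rest on 1 residual degree of freedom and on the assumption that OGT libraries vary like OGA libraries, and pools hide differences between mice. The count of fallen members kept to within 1.5 times of 74 under every alternative run except the fit without the line term, which gave 49; DESeq2 called 53 nuclear members fallen. The count risen, 1 in the test as reported, was 5 by library totals, 0 with the rows of the mitochondrial genome left out, 0 without the line term, and 1 to 2 with 1 OGA library left out in turn. By library totals the nuclear median of OGT-KO became -0.48 and the mitochondrial one turned to 0.22, that of OGA control between times was 0.094, and between the control lines the nuclear and mitochondrial medians were -0.021 and -0.127. That scaling also turned the signs of mt-Nd2 (0.072), mt-Co1 (0.062), mt-Nd4 (0.106), mt-Cytb (0.218), mt-Co2 (0.325), mt-Atp6 (0.155), mt-Atp8 (0.197), mt-Nd3 (0.074), mt-Nd4l (0.255), Cox4i1 (0.042), Cox6b1 (0.003) and Ndufb6 (0.065). The fit without the line term turned those of Ndufb4 (-0.243), Cox6b2 (-0.367), mt-Nd5 (-0.296), mt-Nd6 (-0.262), mt-Co2 (0.111), mt-Co3 (-0.115), mt-Atp8 (0.302) and mt-Nd3 (0.046). At 1.5-fold the size rule passed 2 higher and 63 lower members in OGT-KO, and 3 higher and 9 lower between the control lines. In OGA-KO it passed 1 lower at 28 days, beside the 2-fold members Cox6b2 (higher at 28 days) and Cox7a1 (lower at 14 days). The share of all rows at 1.5-fold is not given here, while the quartiles of all rows in OGT-KO were -0.508 and 0.576. By library totals the median of all rows was 0.369 in OGT-KO and 0.23 between the control lines. The share of all rows at 2-fold under that scaling is not given here. At 2-fold by library totals the size rule passed 2 higher and 10 lower members in OGT-KO and 2 higher between the control lines. The cause was not tested. No paired analysis was possible because each group holds 1 library and no replicate number pairs libraries; the day term already sets OGA-KO against its control within each time. Depth limits Cox6b2, Cox7a1 and Ndufa4l2, whose counts were 3 to 142.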
